A study of Mus musculus with 4 samples.

Results

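Trp53inp2, the gene also called Dor, was followed here together with the 5 mouse genes of the ATG8 family (Gabarap, Gabarapl1, Gabarapl2, Map1lc3a and Map1lc3b) and with Vmp1, which encodes an autophagy protein of the endoplasmic reticulum known to bind Trp53inp2. The genes were chosen by name, with earlier results of these data known. All 7 of them were found among the 55401 genes listed and were among the 16751 genes with enough reads to test. RNA came from the optic nerves of mice of 2 genotypes, Dor WT (2 libraries) and the conditional knockout Dor cKO (2 libraries). The labels name no strain, age, sex, number of animals per library, Cre driver or deleted exon, so the cells in which the gene was deleted are not known from them. A tag that could stand for an age is part of the table names for Dor WT but not for Dor cKO. If it marks a difference in age, age and genotype cannot be told apart.

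Autophagy encloses cell material in a double membrane, the autophagosome, which fuses with the lysosome. ATG8 proteins are small ubiquitin-like proteins that ATG4 proteases trim and that a conjugation system then attaches to the lipid of the growing membrane, where they recruit cargo receptors. The Trp53inp2 protein shuttles between the nucleus, where it acts as a coactivator of thyroid hormone receptors, and the autophagosome, where it binds ATG8 proteins and Vmp1. It is known as an abundant protein of skeletal muscle. In the optic nerve, oligodendrocytes wrap the axons of retinal ganglion cells in myelin.

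The libraries held between 17263820 and 21595825 counts. Between the libraries of a group, the counts of a gene differed by more than sampling noise, with a mean chi-square of 2.60 per gene in Dor WT and 2.21 in Dor cKO, where counting error alone gives about 1. The labels do not say that the libraries of a group came from separate animals, so p-values measure the spread between these libraries, which may be technical. Myelin genes checked the tissue: Mbp, which encodes a protein of compact myelin, stood at 15674 and 15621 CPM (read counts scaled to a common library size) in Dor WT against 9486 and 9414 CPM in Dor cKO.

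Trp53inp2 (ENSMUSG00000038375.15) lies on the plus strand of GRCm38 chromosome 2, from 155381059 to 155389850, and Map1lc3a lies 103.0 kb before it on the same strand, with 2 annotated genes between them. Both genes changed in these data, so the start region of the targeted gene is shown. The sequence below, from RefSeq on build GRCm38.p6, is chr2:155381606-155381830 on the plus strand and runs 5′ to 3′ through the 225 bases that begin 250 bases before the RefSeq start of the gene.
Trp53inp2 start region: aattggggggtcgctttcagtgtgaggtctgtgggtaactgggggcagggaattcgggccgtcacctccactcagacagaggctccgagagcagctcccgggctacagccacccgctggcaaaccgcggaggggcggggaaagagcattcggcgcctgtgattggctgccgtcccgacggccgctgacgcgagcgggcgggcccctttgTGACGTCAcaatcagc
The capitals mark TGACGTCA, the palindrome of the cyclic AMP response element, 41 bases before the RefSeq start and just inside the first exon of a GENCODE transcript that starts at 155381814. This motif was chosen after the sequence was seen, and 1.79% of the 32851 start regions in the table hold it on either strand. Start regions were listed for 6 of the 7 genes, all but Map1lc3a, as 8 regions of 250 bases before to 50 bases after a start. The E-box core CACGTG was in none of the 8 regions (7.15% of all regions hold it), nor was the forkhead core TGTTTAC (3.65%). The nuclear receptor core AGGTCA was found in the Gabarapl2 region and in 1 of the 3 Vmp1 regions, against 16.3% of all regions. A match describes letters in a window and not a bound site.

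Trp53inp2 RNA was lower in Dor cKO but far from absent. The gene had 138 and 134 CPM in Dor WT against 105 and 107 CPM in Dor cKO. Both Dor cKO libraries were below both Dor WT libraries, and the mean went from 136 ± 3.40 to 106 ± 1.24 CPM (SD, n = 2 each). On the log2 scale the level fell by 0.36 (SE 0.04, 95% interval -0.44 to -0.28), to 78.1% of the Dor WT level, with an adjusted p of 2.73e-08 by the edgeR quasi-likelihood test. Counts over the whole gene in whole tissue do not show whether an exon was deleted in some of the cells. In whole tissue, fewer cells of a type and less RNA per cell cannot be told apart.

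The fall of Trp53inp2 was modest beside other falls in the same libraries. Of the genes called lower, 1044 fell by at least as much, Trp53inp2 included. Over all 16751 genes tested, 27.7% were called, 14.3% higher and 13.4% lower, and counts of markers are set beside these shares. The marker lists were chosen with earlier results of these data known, so their counts only describe the lists. All 11 markers of mature oligodendrocytes fell, by 0.45 to 1.53, and their summed level was 30978 and 30841 CPM in Dor WT against 17850 and 17777 CPM in Dor cKO. Astrocyte markers moved the other way, with 6 of 7 higher and 1 lower, as did all 6 markers of meningeal fibroblasts. Of 6 markers of oligodendrocyte precursors 4 fell, of 7 microglia markers 4 rose and 1 fell, and of 5 endothelial markers 2 rose. Of these calls, that of the precursor marker Pdgfra (-0.07, edgeR adjusted p = 0.044) was lost under 10 of 16 alternatives, such as without Dor WT replicate 1 (-0.04, adjusted p = 0.363). That of the endothelial marker Flt1 (0.26, edgeR adjusted p = 9.06e-03) was lost under 5, such as without Dor cKO replicate 2 (0.22, adjusted p = 0.117). Among markers, the alternatives were run only for the 2 most abundant tested genes of each list and for Cga. The other called markers run again, such as Gfap, lost their call under at most 2 alternatives. The precursor markers were uneven. Sox6 (-0.73), Lhfpl3 (-0.60) and Olig2 (-0.49) fell most, while Cspg4 (-0.11) and C1ql1 (-0.14) were not called. Sox6, Lhfpl3, Cspg4 and C1ql1 were named after their values were seen. Of 10 neuron markers, 2 fell and 8 were not called, a share below that of all genes. Their sum went from 332 and 330 CPM to 256 and 259 CPM, mostly through Elavl3, a neuronal RNA-binding protein gene, at 161 and 156 CPM in Dor WT against 89.1 and 96.3 CPM in Dor cKO. The other 9 summed to 171 and 174 CPM in Dor WT against 167 and 163 CPM in Dor cKO. Snap25, which also fell (-0.25, edgeR adjusted p = 0.0463), was close to the threshold and was not run under the alternatives. It was named after its values were seen. The sum of 12 pituitary and ventral hypothalamus genes was 144 and 139.7 CPM in Dor WT against 23.9 and 24.5 CPM in Dor cKO, with 8 of the 9 tested members lower and 4 members at 0 in both Dor cKO libraries. Among those at 0 was Cga, the common subunit gene of pituitary glycoprotein hormones. Skeletal muscle genes were near 0 in every library, with a sum of 7.48 to 10.003 CPM over 12 genes and 3 of them, among which the muscle regulator Myog, without a count. The part of these shifts in the levels of Trp53inp2 and the other 6 genes was not tested.

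**Figure D1:**
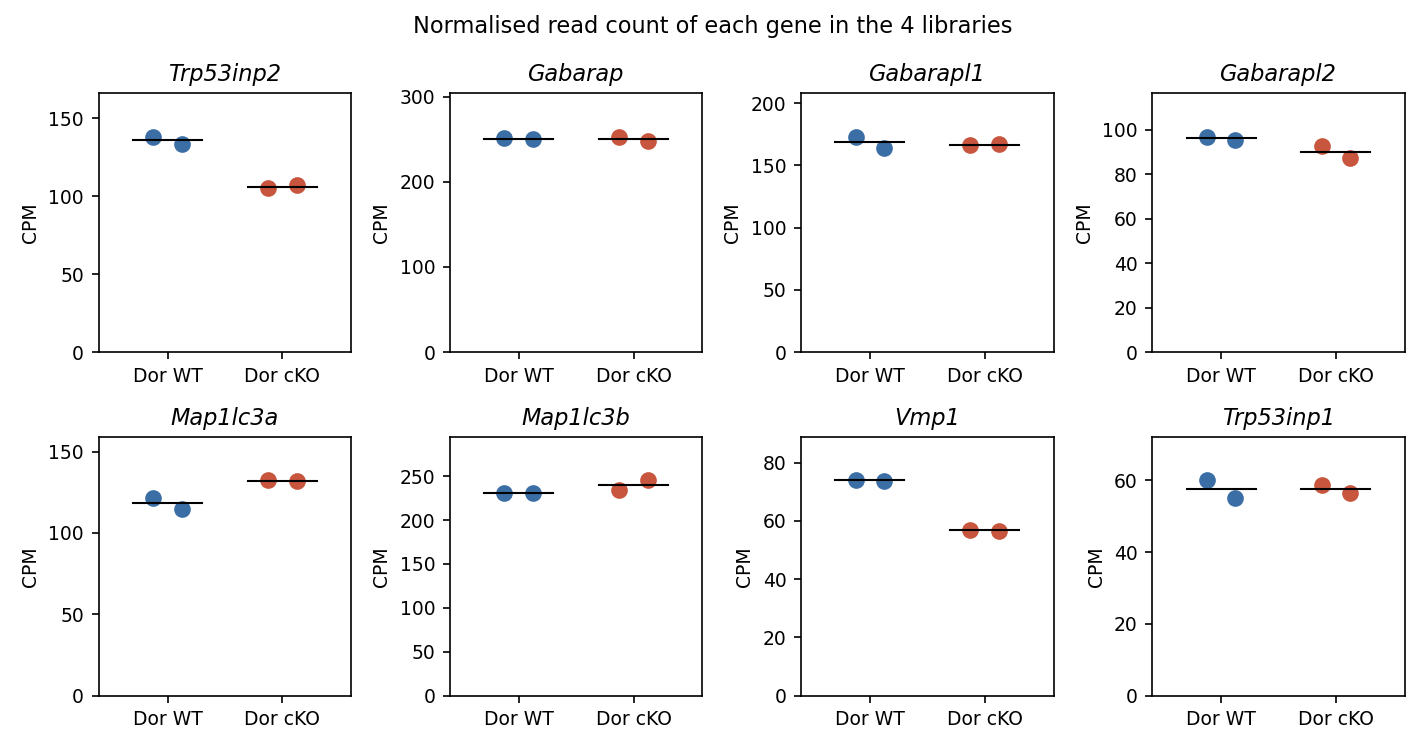
Normalised read count (CPM, y axis from 0) of the 7 genes and of the paralog Trp53inp1 in each library, blue for Dor WT and red for Dor cKO, with a line at the mean of each group of 2 libraries. The groups stand apart most for Trp53inp2 (138 and 134 against 105 and 107 CPM) and Vmp1 (74.0 and 73.8 against 57.0 and 56.7 CPM).

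The paralog Trp53inp1, a stress-induced p53 target gene whose protein also binds ATG8 proteins, had 60.1 and 55.0 CPM in Dor WT against 58.9 and 56.6 CPM in Dor cKO. The groups overlapped, and the gene was not called (log2 fold change 0.01, SE 0.06, edgeR adjusted p = 0.944, 95% interval -0.12 to 0.13). The sign of that value turned under 5 of the alternative settings.

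Within the ATG8 family, genes of the GABARAP branch were not called. Gabarap (chromosome 11, 69991143 to 69994951) encodes a protein first described for its binding to GABA type A receptors and was the most abundant of the family. It had 251 and 250.2 CPM in Dor WT against 253 and 248 CPM in Dor cKO, so that the groups overlapped. Its log2 fold change was -0.00 with a 95% interval of -0.06 to 0.06 (edgeR adjusted p = 0.988). Gabarapl1 (chromosome 6, 129533160 to 129542346), a close relative of Gabarap, had 173 and 164 CPM in Dor WT against 166 and 167 CPM in Dor cKO. Both Dor cKO values lay between the Dor WT values, and the log2 fold change was -0.02 (95% interval -0.09 to 0.05, edgeR adjusted p = 0.797). Gabarapl2 (chromosome 8, 111940703 to 111953612), also called GATE-16 and linked to transport within the Golgi, had 97.0 and 95.5 CPM in Dor WT against 92.8 and 87.3 CPM in Dor cKO. Both Dor cKO libraries were lower, but the difference of -0.10 (95% interval -0.19 to 0.00) did not pass the test (edgeR adjusted p = 0.137).

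In the LC3 branch, Map1lc3a rose. Map1lc3a (chromosome 2, 155276297 to 155278073) encodes LC3A, and had 121 and 115 CPM in Dor WT against 133 and 132 CPM in Dor cKO. Both Dor cKO libraries were above both Dor WT libraries, with means of 118 ± 4.45 and 132 ± 0.384 CPM (SD, n = 2 each). The gene rose by 0.16 (SE 0.04, edgeR adjusted p = 1.89e-03), 1.12-fold higher. Map1lc3b (chromosome 8, 121590361 to 121598760) encodes LC3B, the form most used to follow autophagosomes. It had 231 and 231 CPM in Dor WT against 234 and 246 CPM in Dor cKO. The groups did not overlap, yet the difference of 0.06 (95% interval -0.01 to 0.12) was not called (edgeR adjusted p = 0.186), and its sign depended on the unit, as given with the transcript lengths.

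Vmp1 fell about as much as the targeted gene. Vmp1 (chromosome 11, minus strand, 86583865 to 86683836) encodes a membrane protein that moves lipids at the endoplasmic reticulum during autophagosome formation. It had 74.0 and 73.8 CPM in Dor WT against 57.0 and 56.7 CPM in Dor cKO. The Dor cKO libraries stood below Dor WT and close to each other, and the mean went from 73.9 ± 0.127 to 56.9 ± 0.231 CPM (SD, n = 2 each). The log2 fold change was -0.38 (SE 0.05, 95% interval -0.49 to -0.27, edgeR adjusted p = 2.14e-06), which left 76.9% of the Dor WT level. Of the genes called lower, 973 fell by at least as much. The annotated hairpin of Mir21a lies inside the gene on the same strand and was listed with 0 counts in all 4 libraries. The libraries were made with an mRNA kit, so these counts do not show whether the microRNA was present.

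**Figure D2:**
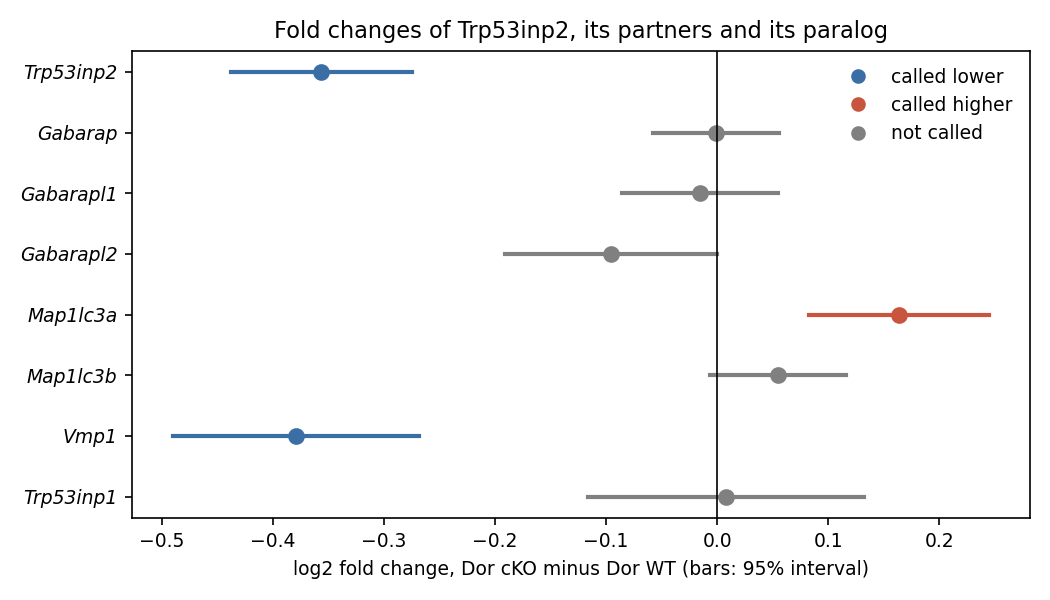
Log2 fold change (x axis, Dor cKO minus Dor WT) with its 95% interval for each of the 7 genes and the paralog Trp53inp1, from the fit to all genes with 2 libraries per group. The intervals of Trp53inp2 (-0.44 to -0.28) and Vmp1 (-0.49 to -0.27) lie below 0, that of Map1lc3a (0.08 to 0.24) lies above 0, and the others reach 0.

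Of the 7 genes, 2 fell, 1 rose and 4 were not called, against 27.7% of all 16751 genes called, 14.3% higher and 13.4% lower. With so few genes, a share of 3 in 7 is not read as a result about the set. CPM values of the groups did not overlap for 5 of the 7 genes, which is near the 60.8% of all tested genes. The 3 calls held when each library was left out in turn. They ended for Trp53inp2 and Map1lc3a with limma on log2(TPM + 1), where Vmp1 was still called, and for all 3 when the biological coefficient of variation was set at 0.1 in place of the common 0.0348 estimated from these libraries. That setting also replaced the quasi-likelihood test by a likelihood ratio test with the same spread for every gene.

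Levels of different genes were compared as TPM, a relative transcript abundance that allows for length and depth. Gabarap led with 338 and 340 TPM in Dor WT against 338 and 326 TPM in Dor cKO. Map1lc3a followed with 221 and 207 TPM in Dor WT against 237 and 233 TPM in Dor cKO, although it was only the fourth of the family by counts. Gabarapl1, at 172 and 162 TPM in Dor WT against 162 and 154 TPM in Dor cKO, did not differ beyond the spread of the libraries from Map1lc3b, at 170.2 and 167 TPM in Dor WT against 149 and 161 TPM in Dor cKO. In Dor WT, Vmp1 (128 and 118 TPM) stood just above Gabarapl2 (114 and 114 TPM). In Dor cKO the order of these neighbours turned, with Gabarapl2 at 113 and 99.7 TPM and Vmp1 at 99.4 and 91.0 TPM. Trp53inp2 was the lowest of the 7 in every library, at 66.4 and 61.0 TPM in Dor WT against 53.7 and 51.0 TPM in Dor cKO. Trp53inp1 was lower still, at 15.8 to 18.5 TPM.

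Summed over its 5 genes, the ATG8 family stood at 1015 and 990.2 TPM in Dor WT against 999 and 974 TPM in Dor cKO. The groups overlapped in this TPM sum. The summed CPM was 873 and 856 in Dor WT against 879 and 880 in Dor cKO, higher without overlap. CPM of the groups did not overlap for 60.8% of all tested genes. The GABARAP branch made up 61.4% and 62.2% of the TPM sum in Dor WT against 61.3% and 59.6% in Dor cKO. Trp53inp2 RNA amounted to 6.54% and 6.16% of the ATG8 TPM sum in Dor WT and to 5.38% and 5.24% in Dor cKO, without overlap.

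**Figure D3:**
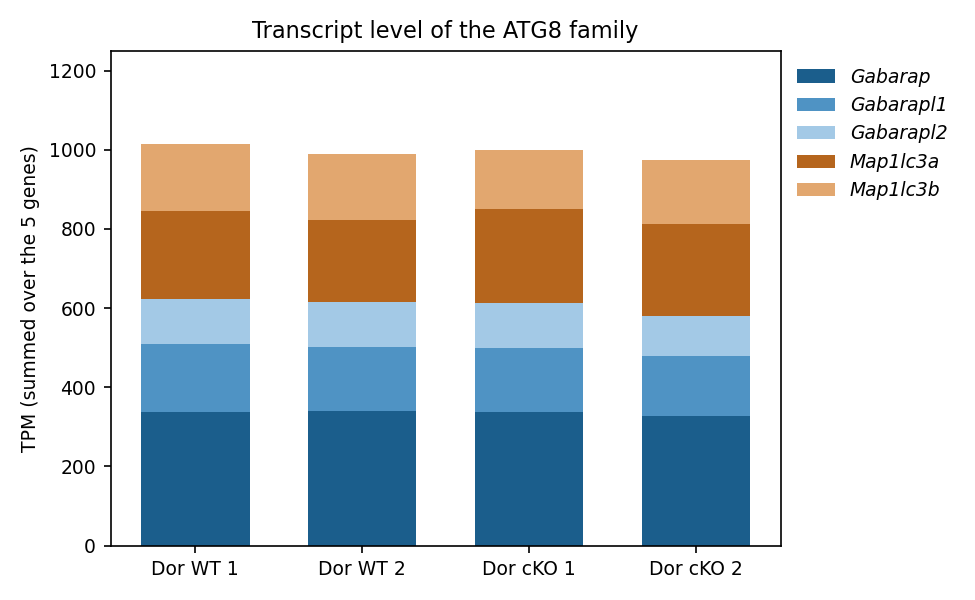
Stacked TPM (y axis from 0) of the 5 ATG8 family genes in each of the 4 libraries, blue shades for the GABARAP branch and brown shades for the LC3 branch. The bars reach 974 to 1015 TPM, and Gabarap is the largest part of each bar.

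The deposited tables also give for each gene a length, the mean of its transcripts weighted by their estimated shares, which therefore moves with the isoform mix. For Map1lc3b this length was 2223 and 2260 bases in Dor WT against 2499 and 2441 bases in Dor cKO. The Dor cKO libraries were both above Dor WT, by 10.2% on average. Its 5 listed transcripts run from 766 to 4138 bases, and the longest is annotated as a retained intron. Among 14127 tested genes with several transcripts, 32.1% had lengths that did not overlap between groups, and 8.51% were also at least 5% longer in Dor cKO, so a shift of this kind is not rare here. With the longer estimate, TPM of Map1lc3b went down while CPM went up: limma on log2(TPM + 1) gave -0.12 (adjusted p = 0.199), where counts gave 0.06. Over the alternatives tried, the adjusted p of Map1lc3b ran from 0.0948 to 1.00.

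For Trp53inp2 the weighted length was 3279 and 3435 bases in Dor WT against 3066 and 3265 bases in Dor cKO, against 3979 bases for its longest transcript. The groups did not overlap, but the nearest libraries differed by less than the libraries within either group. For Vmp1 the length was 1095 and 1170 bases in Dor WT against 1071 and 1141 bases in Dor cKO, with overlap. These values lie well under the 2787 bases of the longest coding transcript of Vmp1, and 6 of its 8 listed transcripts are annotated as noncoding, with at most 931 bases. For Gabarap, Gabarapl1, Gabarapl2 and Map1lc3a the mean length differed between groups by 2.47% or less.

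**Figure D4:**
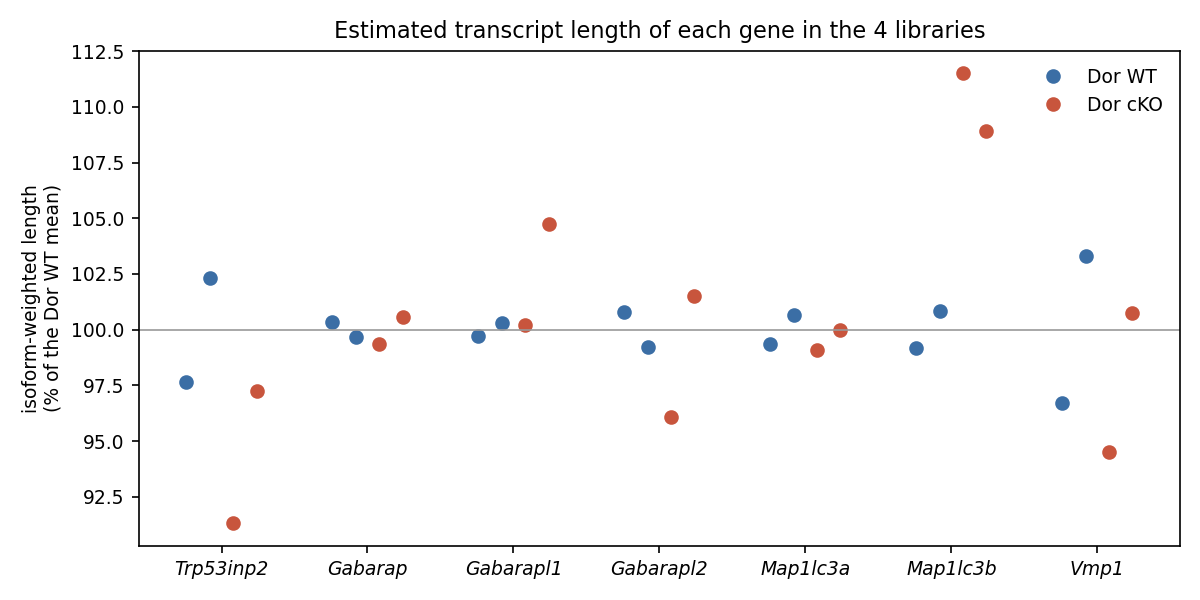
Isoform-weighted length of each gene in the 4 libraries, as a percent of its Dor WT mean (y axis), blue for Dor WT and red for Dor cKO. Map1lc3b is longer in both Dor cKO libraries (2499 and 2441 against 2223 and 2260 bases), whereas the groups overlap for Gabarap, Gabarapl1, Gabarapl2, Map1lc3a and Vmp1.

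The posterior standard deviation of the count, which covers only how RSEM shared out reads under its own model, was 0 in all 4 libraries for Trp53inp2, Gabarap, Map1lc3a and Vmp1 and at most 1.24 counts for Gabarapl1, Gabarapl2 and Map1lc3b. Trp53inp2 rested on 2403 and 2900 counts in Dor WT and on 2209 and 2221 counts in Dor cKO. Gm20388 is an annotated gene that spans Map1lc3b on the same strand. It was listed with 390 and 0 counts in Dor WT and with 342 and 0 counts in Dor cKO. This split follows the replicate number and not the groups. Whether the counting used strand is not given in the sources used here, and the end of Map1lc3b overlaps that of Zcchc14 on the other strand.

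Beyond the 7 genes, 6 lists of other autophagy genes by role, also chosen with earlier results known, held 74 genes, all tested. Of these, 11 rose, 8 fell and 55 were not called, which is 25.7% called, near the 27.7% of all genes, with a median log2 fold change of -0.00 against -0.00 for all genes. With a seventh list, of 5 thyroid hormone receptors and RXR partners, the counts were 12 higher and 9 lower of 79, and with total count scaling that split was 8 higher and 12 lower. In the lists that start and extend the autophagosome, few genes were called (8.33%, 10% and 9.09%, in the order below). Of 12 initiation genes, only Ulk2, a kinase that starts autophagy, was called, and fell by 0.14 (SE 0.04, edgeR adjusted p = 7.52e-03), with a list median of -0.00. Of 10 genes of membrane supply, only Tmem41b, which encodes a lipid scramblase that works beside Vmp1, was called, and fell by 0.22 (SE 0.06, edgeR adjusted p = 5.66e-03), with a list median of 0.01. Of 11 genes of ATG8 processing and conjugation, only Atg4a, one of the proteases that trim ATG8 proteins, was called, and fell by 0.32 (SE 0.10, edgeR adjusted p = 0.0171). The median of that list was -0.11.

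Cargo receptors, the proteins that tie cargo to ATG8, went both ways, with 5 of 15 higher, 3 lower and a median of 0.04. With 53.3% called, this list lay above the 27.7% of all genes, a difference that was not tested. None of these calls was kept with limma on either TPM scale, where far fewer genes were called in all. Those of Fkbp8, Nbr1, Retreg1 and Stbd1 were also lost when some single library was left out. Sqstm1, the gene of the receptor p62, went from 315 and 301 CPM to 339 and 346 CPM and rose by 0.16 (SE 0.03, edgeR adjusted p = 2.95e-05). Fkbp8, a receptor gene for mitochondria, rose by 0.10 (SE 0.03). Also higher were Calcoco1, by 0.37, Tex264, a receptor gene for the endoplasmic reticulum, by 0.30, and Stbd1, linked to glycogen, by 0.35. Ncoa4, whose protein delivers ferritin to autophagy, fell by 0.15 (SE 0.03, edgeR adjusted p = 8.72e-04), Nbr1 fell by 0.12 and Retreg1, another receptor gene for the endoplasmic reticulum, fell by 0.29. Calcoco1, Tex264, Stbd1, Nbr1 and Retreg1 were named after their values were seen.

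Of 12 genes of autophagosome fusion, 2 rose and 1 fell, with a median of -0.08. The share called was 25%, near the 27.7% of all genes. Vamp8, a fusion protein gene of the SNARE family, went from 50.5 and 49.9 CPM to 67.5 and 68.7 CPM and rose by 0.44 (SE 0.06, edgeR adjusted p = 4.59e-07). Rab7, a small GTPase gene of late endosomes, rose by 0.08 (SE 0.02), but its sign turned with limma on both TPM scales, and its call was lost under 6 other alternatives. Rubcn, the gene of Rubicon, a brake on autophagosome maturation, went from 86.2 and 81.6 CPM to 64.6 and 64.7 CPM and fell by 0.37 (SE 0.05, edgeR adjusted p = 1.37e-06).

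Of 14 transcriptional and kinase regulators, 4 rose and 1 fell, with a median of 0.03. The share called was 35.7%, against 27.7% of all genes. Foxo3 and Foxo1, forkhead factor genes known to induce autophagy genes, rose by 0.19 (SE 0.04) and 0.26 (SE 0.05), and Tfe3, a lysosomal gene regulator, by 0.19 (SE 0.07). Prkaa2, a catalytic subunit gene of AMP-activated kinase, rose by 0.20 and Mitf, a relative of Tfe3, fell by 0.52; both were named after their values were seen. Among thyroid hormone receptors and their RXR partners, Thra, the receptor gene that Trp53inp2 is best known to coactivate, went from 398 and 385 CPM to 326 and 332 CPM and fell by 0.25 (SE 0.02, edgeR adjusted p = 3.49e-09). Rxra rose by 0.22 (SE 0.04), and the other 3 of these 5 genes were not called. That is 40% called, in a list too short to read the share as a result.

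**Figure D5:**
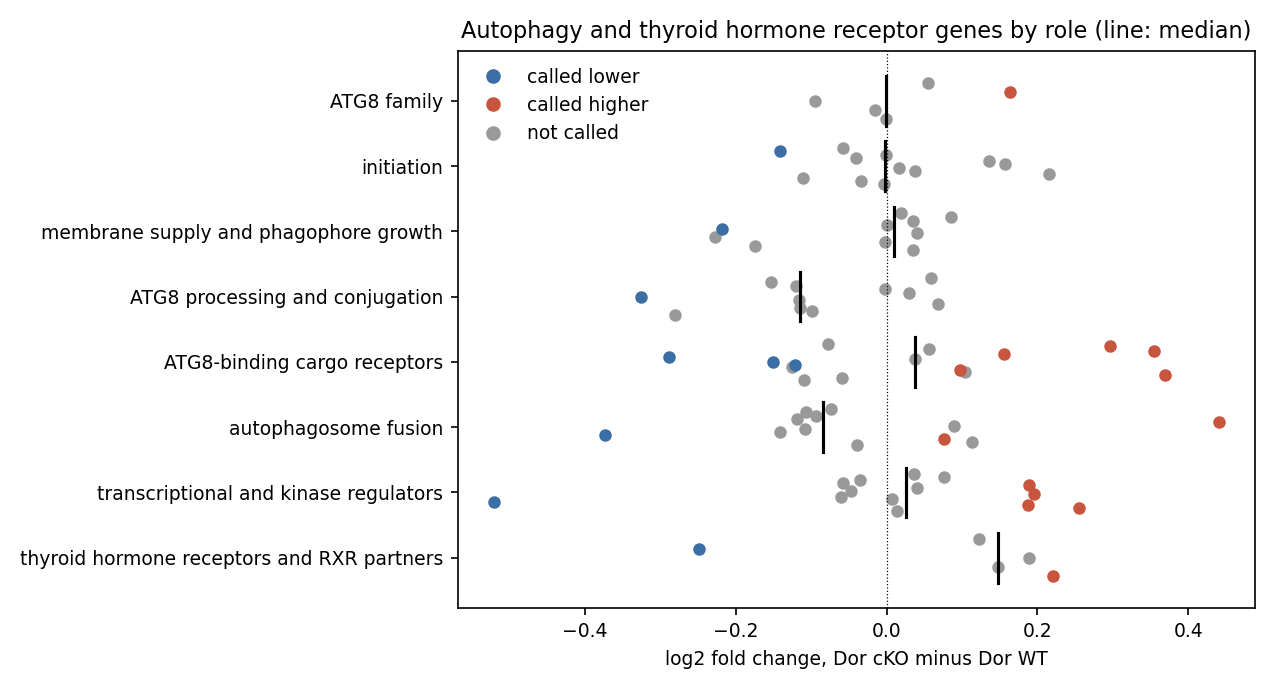
Log2 fold change (x axis, Dor cKO minus Dor WT) of each tested gene of the ATG8 family and of 7 lists by role, blue for genes called lower, red for called higher and grey for not called, with a line at each list's median. The medians lie between -0.11 and 0.15, and the points with a call fall on both sides of 0.

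Of these 21 calls, 11 held when each library was left out in turn and 10 were lost without at least 1 library. By edgeR's adjusted p, those lost without Dor WT replicate 1 were Tmem41b (0.0594), Fkbp8 (0.12), Nbr1 (0.057), Prkaa2 (0.131), Stbd1 (0.0537) and Tfe3 (0.219). Without Dor WT replicate 2 they were Atg4a (0.0607), Prkaa2 (0.051), Rab7 (0.0884) and Stbd1 (0.145). Without Dor cKO replicate 1 they were Tmem41b (0.0566), Atg4a (0.11), Nbr1 (0.104), Prkaa2 (0.366), Stbd1 (0.171) and Tfe3 (0.555). Without Dor cKO replicate 2 they were Ulk2 (0.17), Atg4a (0.0611), Fkbp8 (0.157), Rab7 (0.287), Retreg1 (0.0675) and Stbd1 (0.102). With DESeq2, 15 of the 21 calls were kept, and the adjusted p was 0.0698 for Atg4a, 0.0591 for Fkbp8, 0.13 for Prkaa2, 0.089 for Rab7, 0.117 for Stbd1 and 0.121 for Tfe3. With total count scaling in edgeR, 17 were kept, and the adjusted p was 0.0508 for Fkbp8, 0.0688 for Prkaa2, 0.102 for Rab7 and 0.0715 for Tfe3. With limma on either TPM scale, only 3 were kept, those of Rubcn, Thra and Vamp8. The calls lost there included Sqstm1, Calcoco1, Tex264, Ncoa4, Foxo1, Foxo3, Mitf and Rxra, which had held when each library was left out. At assumed coefficients of variation of 0.1 and 0.2, 2 calls (Mitf and Vamp8) and 0 calls were kept.

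The genes whose pattern over the 4 libraries was closest to that of Trp53inp2 were sought among 3101 genes of similar level. These had a mean CPM from 0.5 to 2 times that of Trp53inp2. Genes at 0 in any library, pseudogenes, genes without a symbol and genes named by number or clone were left out. Likeness was the distance between log2 CPM values, each gene centred on its own mean. The closest was Mtmr2, a phosphoinositide phosphatase gene, at a distance of 0.011, with 89.6 and 86.9 CPM in Dor WT against 68.6 and 69.1 CPM in Dor cKO. Next came Papss1, which encodes an enzyme of the sulfate donor, at 0.0263, Fnta, a farnesyltransferase subunit gene, at 0.0303, Micall1, an endosomal adaptor gene, at 0.0305 and Rubcn at 0.031. Each is lower in both Dor cKO libraries, and with 4 libraries in 2 groups such likeness mostly reflects the size of the difference between groups.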

How the data were processed

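RNA from 4 optic nerve samples was sequenced with a stranded mRNA kit, per the labels' protocols. Trimmomatic 0.36, STAR 2.7.9a and RSEM 1.3.1 are listed in the submitters' processing notes with the build GRCm38 but not with their roles. The gene annotation they used is not given in the sources used here. Each deposited table holds 1 library in RSEM's gene format, with, per the file headers, an expected count, TPM, FPKM, isoform-weighted length and posterior standard deviation of the count; FPKM was not used. Symbols and coordinates came from GENCODE M21 on the same build, and 55141 of 55401 identifiers had a symbol.

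The deposited expected counts were rounded, filtered with filterByExpr (minimum count 10, minimum total 15), scaled by TMM and tested with edgeR 4.0.16 (robust quasi-likelihood, group as the only term, Benjamini-Hochberg adjustment over 16751 genes, called at an adjusted p under 0.05). SE is the size of a fold change divided by the square root of F, and 95% intervals use the t distribution with edgeR's degrees of freedom. Alternatives used DESeq2 1.42.0, limma 3.58.1 on log2 of the deposited TPM plus 1 or 0.1, other scalings, filters and spreads, and fewer libraries. The main edgeR fit was also run on simulated counts with a constant spread and few changed genes, and no result rests on that run. Intervals cover the spread between libraries.

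The genes and lists were chosen with earlier results of these data known. Named genes were the 7 genes, Trp53inp1, up to 3 called genes with the highest mean CPM per pathway list, the 2 most abundant per marker list (used as sums where not named) and the 5 genes most like Trp53inp2. Other genes named by their values are marked as such in the text. The markers Cga and Myog and the genes that overlap one of the 7 were also named outside the rule. Protein sequences were not analysed here.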

Additional observations from a re-analysis of the deposited data

How the results depend on the processing

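Over 16 alternatives the Trp53inp2, Vmp1 and Map1lc3a differences kept their direction. Their calls were lost as follows. With limma on log2(TPM + 1) and log2(TPM + 0.1), Trp53inp2 stood at -0.28 and -0.28 (adjusted p = 0.0719 and 0.0728) and Map1lc3a at 0.13 and 0.14 (0.139 and 0.142). At assumed coefficients of variation of 0.1 and 0.2, Trp53inp2 stood at -0.36 and -0.36 (0.111 and 1.00), Map1lc3a at 0.16 and 0.16 (0.607 and 1.00) and Vmp1 at -0.38 and -0.38 (0.0909 and 1.00). Over all alternatives the adjusted p ran from 2.47e-16 to 1.00 for Trp53inp2 and from 2.32e-04 to 1.00 for Map1lc3a. Under these 4 settings, in the same order, calls among the 7 genes numbered 1, 1, 0 and 0 instead of 3, among the pathway genes 3, 3, 2 and 0 instead of 21, and among all genes 1428, 1422, 1594 and 211 instead of 4647. The settings with assumed spreads, which also changed the test, raised the SE of each of the 7 genes, and for TPM the cause was not tested.

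Signs turned only for values that were not called, apart from Rab7. Map1lc3b stood at -0.12 and -0.12 with limma on log2(TPM + 1) and log2(TPM + 0.1), and Rab7 at -6.49e-03 and -6.52e-03. Gabarap stood at 8.33e-04 with DESeq2, 1.55e-04 with RLE scaling, 6.65e-03 without a low-count filter and 8.24e-04 with at least 1 CPM in 2 samples. Trp53inp1 stood at -0.0118 with total count scaling and at -0.0502 and -0.0526 with limma on the 2 TPM scales.

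Leaving out each library in turn gave -0.38 to -0.33 for Trp53inp2, -0.38 to -0.37 for Vmp1, 0.12 to 0.20 for Map1lc3a, -0.14 to -0.05 for Gabarapl2, 0.02 to 0.09 for Map1lc3b, -0.0142 to 0.0134 for Gabarap and -0.054 to 0.0207 for Gabarapl1. Gabarapl2 stood at -0.14 without Dor cKO replicate 1 and -0.05 without Dor cKO replicate 2, and Map1lc3b at 0.09 and 0.02, with no call. The sign turned for Gabarap without Dor WT replicate 1 (2.47e-03) or Dor cKO replicate 2 (0.0134), for Gabarapl1 without Dor WT replicate 1 (0.0207), for Trp53inp1 (range -0.0571 to 0.0700) without Dor WT replicate 2 or Dor cKO replicate 1, for the muscle gene Tnnt3 (range -0.0105 to 0.61) without Dor WT replicate 1 and for the muscle gene Atp2a1 (range -0.65 to 0.71) without Dor cKO replicate 1. A lone library left in a group is assumed to vary like the other group.

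The labels give both groups replicate numbers, but nothing says that a number marks a shared animal. Same-numbered libraries did not deviate together in log2 CPM (r = -0.01 across genes). Some other values did split by number. Gm20388 had counts only in replicate 1 of each group (390 in Dor WT, 342 in Dor cKO). The weighted lengths of Trp53inp2, Vmp1, Gabarapl1 and Map1lc3a were shorter in replicate 1 of both groups. Those of Gabarap, Gabarapl2 and Map1lc3b were not. Whether the numbers mark shared handling was not tested. With the replicate block, Trp53inp2 stood at -0.36 and Map1lc3a at 0.16, all calls among the 7 genes were 3 as before, and 4971 genes were called in all.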
